A study of Canis lupus familiaris with 4 samples.

Results

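Glucose entry and the phosphofructokinase step were followed through 10 genes: the glucose transporters SLC2A1 and SLC2A3, the hexokinases HK1 and HK2, the isomerase GPI, the phosphofructokinases PFKL, PFKM and PFKP, and the regulatory enzymes PFKFB3 and PFKFB4. A gene was taken by its symbol in the platform annotation, with every probe set that carries that symbol alone. That gave 24 of the 42924 probe sets on the array, and 10 of the 15115 genes with a named probe set. The RNA came from MDCKII cells, an established epithelial line from dog kidney. The groups, by label, were HIF1A KD cells in hypoxia, HIF1A WT cells in hypoxia, HIF1A KD cells in normoxia and HIF1A WT cells in normoxia, with 1 array each. All cultures had 24 h of normoxia and then another 24 h at the labelled oxygen condition. KD stands for a knockdown of HIF1A and WT for cells without it; the sources used here do not say how it was made, whether the line was 1 clone, or what the oxygen level was.

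A cell takes up glucose through SLC2A transporters, which let it pass down its gradient. Hexokinase adds a phosphate that keeps the sugar inside, GPI turns glucose 6-phosphate into fructose 6-phosphate, and phosphofructokinase adds a second phosphate in the step that commits the sugar to glycolysis. PFKFB enzymes make or break down fructose 2,6-bisphosphate, the strongest known activator of phosphofructokinase. HIF1A encodes the oxygen-labile subunit of HIF-1, a transcription factor that is stabilised when oxygen is low and is known to raise many of these genes in mammalian cells. The series addressed how hypoxia acts on expression in these cells and how HIF1A bears on it.

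A difference between 2 single arrays carries no estimate of replicate error, and 4 arrays limit how precise any value can be. Differences below are log2 values of intensity plus 16, a scale that understates the change of dim probe sets. A probe set entered the counts if its highest array reached the median of all log2 values, 5.96, which is an intensity of 46.3 and is called the floor. Of the 24 probe sets, 18 reached it, 15 of them on all 4 arrays, and 6 lay below it on every array. The arrays had median intensities from 45.6 to 47.1 and correlated pairwise with Pearson's r from 0.982 to 0.987 across probe sets. Kidney epithelium markers were present: 9 of 10 measured ones lay above the floor on all arrays, EPCAM and KRT18 among them. CDH1 was below it on every array, with 17.8 to 41.2. The summed intensity of those markers ran from 33920 to 35618, and that of 7 fibroblast markers from 125 to 139, with 6 below the floor on every array and PDGFRA above it on all, at 49.0 to 60.5. Of 5 endothelium markers CDH5, at 104 to 178, and KDR lay above the floor on all arrays and PECAM1, TEK and VWF below it on every one, with sums from 195 to 296. Of 5 leukocyte markers CD68 lay above it on all arrays, at 177 to 250, and CD3E and ITGAM below it on every one, with sums from 304 to 380. Of 4 muscle markers 0 lay above it on all arrays, with sums from 112 to 139.

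HIF1A went against the knockdown label. Its brightest probe set had an intensity of 625 in the array labelled KD hypoxia, 675 in the array labelled WT hypoxia, 3435 in the array labelled KD normoxia and 3651 in the array labelled WT normoxia. It was thus low in both arrays labelled hypoxia and high in both labelled normoxia, whichever genotype the label gave. The labelled KD minus WT difference was -0.09 in normoxia and -0.11 in hypoxia. Were the labels of the arrays KD normoxia and WT hypoxia exchanged with each other, HIF1A would be low in both KD arrays and high in both WT arrays; whether they were exchanged was not tested. Directions are given by label throughout. Under such an exchange every KD minus WT difference within an oxygen condition below would become a hypoxia minus normoxia difference. The reverse would hold too, with the same values. KD minus WT in normoxia would be hypoxia minus normoxia in WT cells. KD minus WT in hypoxia would be hypoxia minus normoxia in KD cells. The pair KD hypoxia minus WT normoxia would keep its labels, and KD normoxia minus WT hypoxia would become WT hypoxia minus KD normoxia.

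**Figure D1:**
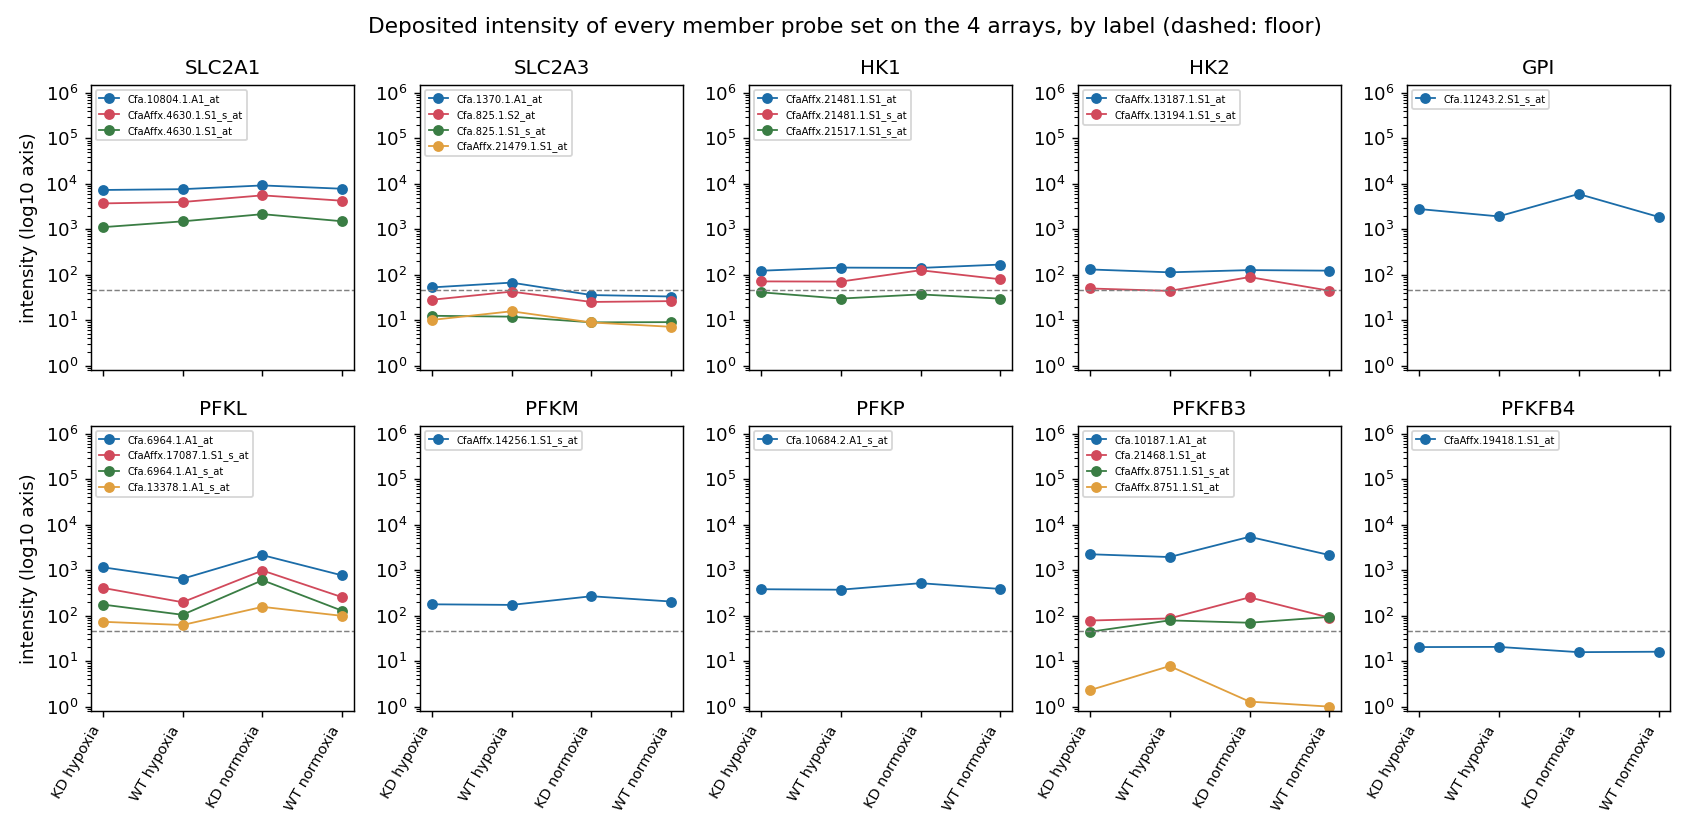
Deposited intensity (log10 axis) of all 24 probe sets of the 10 genes, 1 panel a gene, on the arrays labelled KD hypoxia, WT hypoxia, KD normoxia and WT normoxia from left to right. Each point is 1 array, a line joins the points of 1 probe set and stands for no order, and the dashed line is the floor at 46.3. GPI, all 4 PFKL probe sets and 2 of the 4 PFKFB3 probe sets peak in the array labelled KD normoxia, while SLC2A3 and PFKFB4 lie near or below the floor.

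The array labelled KD normoxia stood highest for most of these probe sets. Among the 18 that reached the floor it was the highest array for 14 and the lowest for 0. Over all 23652 tested probe sets that array was highest for 26.0% and lowest for 31.3%. Among the 15 above the floor on all arrays it was highest for 13 and lowest for 0, against 26.0% and 32.0% of all such probe sets. Some genes have several of these probe sets, so the counts are not of separate genes. The array labelled WT hypoxia was the lowest for 10 of the 18, against 23.1% of all. The genes with the widest spread were GPI, PFKL and PFKFB3, which sit around the reactions that make fructose 6-phosphate and pass it on.

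SLC2A1, the widely expressed glucose transporter GLUT1, was bright on every array. Its brightest probe set read 7353 in the array labelled KD hypoxia, 7659 in WT hypoxia, 9259 in KD normoxia and 7822 in WT normoxia. The second read 3725, 3999, 5603 and 4260 in the same order of labels. The third and dimmest SLC2A1 probe set read 1118, 1501, 2163 and 1507 in that order. All 3 were highest in the array labelled KD normoxia and lowest in the array labelled KD hypoxia. The labelled KD minus WT difference in normoxia ran from 0.24 to 0.52 over the 3 probe sets and in hypoxia from -0.42 to -0.06. For labelled hypoxia minus normoxia it ran from -0.94 to -0.33 in KD cells and from -0.09 to -0.01 in WT cells.

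SLC2A3, the high-affinity transporter GLUT3 known from neurons, was dim. Its brightest probe set read 53.0 in the array labelled KD hypoxia, 67.6 in WT hypoxia, 36.0 in KD normoxia and 33.4 in WT normoxia. It was above the floor in both arrays labelled hypoxia and below it in both labelled normoxia, so the size of its oxygen differences is not measured. The other 3 SLC2A3 probe sets lay between 7.21 and 42.8 on every array. SLC2A3 was the only tested gene of the 10 whose representative probe set, the one with the highest mean, was higher with labelled hypoxia in both genotypes. It was tested only because its arrays labelled hypoxia reached the floor, so that direction is bound up with the filter and sets it apart from no other gene. PFKFB4, below the floor and untested, also read higher in both arrays labelled hypoxia.

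The size of the hexokinase differences depended on the probe set. HK1, the housekeeping hexokinase, read 123 in the array labelled KD hypoxia, 144 in WT hypoxia, 142 in KD normoxia and 169 in WT normoxia with its brightest probe set. Its second probe set above the floor read 71.9, 71.2, 126 and 80.0 in the same order of labels. The first was lower by 0.22 for labelled KD minus WT in normoxia and the second higher by 0.57, so HK1 has no settled direction in that pair.

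HK2, the hexokinase known to be inducible and bound to mitochondria, differed between its probe sets in size and not in sign for KD minus WT. Its brightest probe set read 132 in the array labelled KD hypoxia, 114 in WT hypoxia, 127 in KD normoxia and 124 in WT normoxia, which spans differences of 0.04 and 0.19 for KD minus WT in normoxia and hypoxia. The other HK2 probe set read 50.3, 44.4, 89.5 and 44.8 in that order, highest in the array labelled KD normoxia, just above the floor in KD hypoxia and below it in both arrays labelled WT. No limma call was made for either hexokinase.

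GPI, the isomerase between the hexokinase and phosphofructokinase reactions, had the largest KD minus WT difference in normoxia among the brightest probe sets of the 10 genes. It read 2810 in the array labelled KD hypoxia, 1932 in WT hypoxia, 6003 in KD normoxia and 1885 in WT normoxia. The value in the array labelled KD normoxia was 3.18 times that in WT normoxia, and the 2 arrays labelled WT differed by a ratio of 1.03. On the log2 scale GPI was higher by 1.66 for KD minus WT in normoxia and by 0.54 in hypoxia, and hypoxia minus normoxia was -1.09 in KD cells and 0.04 in WT cells.

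PFKL, the liver-type phosphofructokinase subunit, followed GPI across the arrays. Its brightest probe set read 1161 in the array labelled KD hypoxia, 647 in WT hypoxia, 2143 in KD normoxia and 765 in WT normoxia. The next read 409, 197, 983 and 254 in the same order of labels. The remaining 2 read 176, 105, 602 and 128, and 73.4, 62.2, 156 and 98.8. All 4 probe sets were highest in the array labelled KD normoxia and lowest in the array labelled WT hypoxia. KD minus WT in normoxia ran from 0.58 to 2.10 over the 4 probe sets and in hypoxia from 0.19 to 0.99. Hypoxia minus normoxia ran from -1.69 to -0.88 in KD cells and from -0.55 to -0.24 in WT cells. The sign held over all 4 probe sets in each pair, and the size did not, with a spread of 1.52 in the normoxia pair.

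The other phosphofructokinase subunits differed less. PFKM, the muscle-type subunit, read 178 in the array labelled KD hypoxia, 172 in WT hypoxia, 267 in KD normoxia and 204 in WT normoxia. PFKP, the platelet-type subunit, read 381, 372, 518 and 386 in that order. Both had their highest value in the array labelled KD normoxia, with KD minus WT in normoxia of 0.36 for PFKM and 0.41 for PFKP, and of 0.04 and 0.03 in hypoxia. Each has 1 probe set, so no second measurement stands beside these values.

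PFKFB3, the isoform whose kinase activity far exceeds its phosphatase activity, had the array labelled KD normoxia apart from the other 3 in its brightest probe set. That probe set read 2243 in the array labelled KD hypoxia, 1944 in WT hypoxia, 5420 in KD normoxia and 2148 in WT normoxia. A second one read 78.1, 87.0, 253 and 90.5 in the same order of labels. KD minus WT in normoxia was 1.33 and 1.34 in these 2 probe sets, and 0.21 and -0.13 in hypoxia. A further PFKFB3 probe set read 44.1, 78.7, 69.9 and 93.9 in that order and was lower by 0.36 for KD minus WT in normoxia. The last lay between 1.00 and 7.79 on every array, with 1.00 a value at which many probe sets are listed and which holds no level. PFKFB4, a second isoform known to respond to hypoxia, had 1 probe set, at 20.4, 20.6, 15.8 and 16.1, below the floor on every array.

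**Figure D2:**
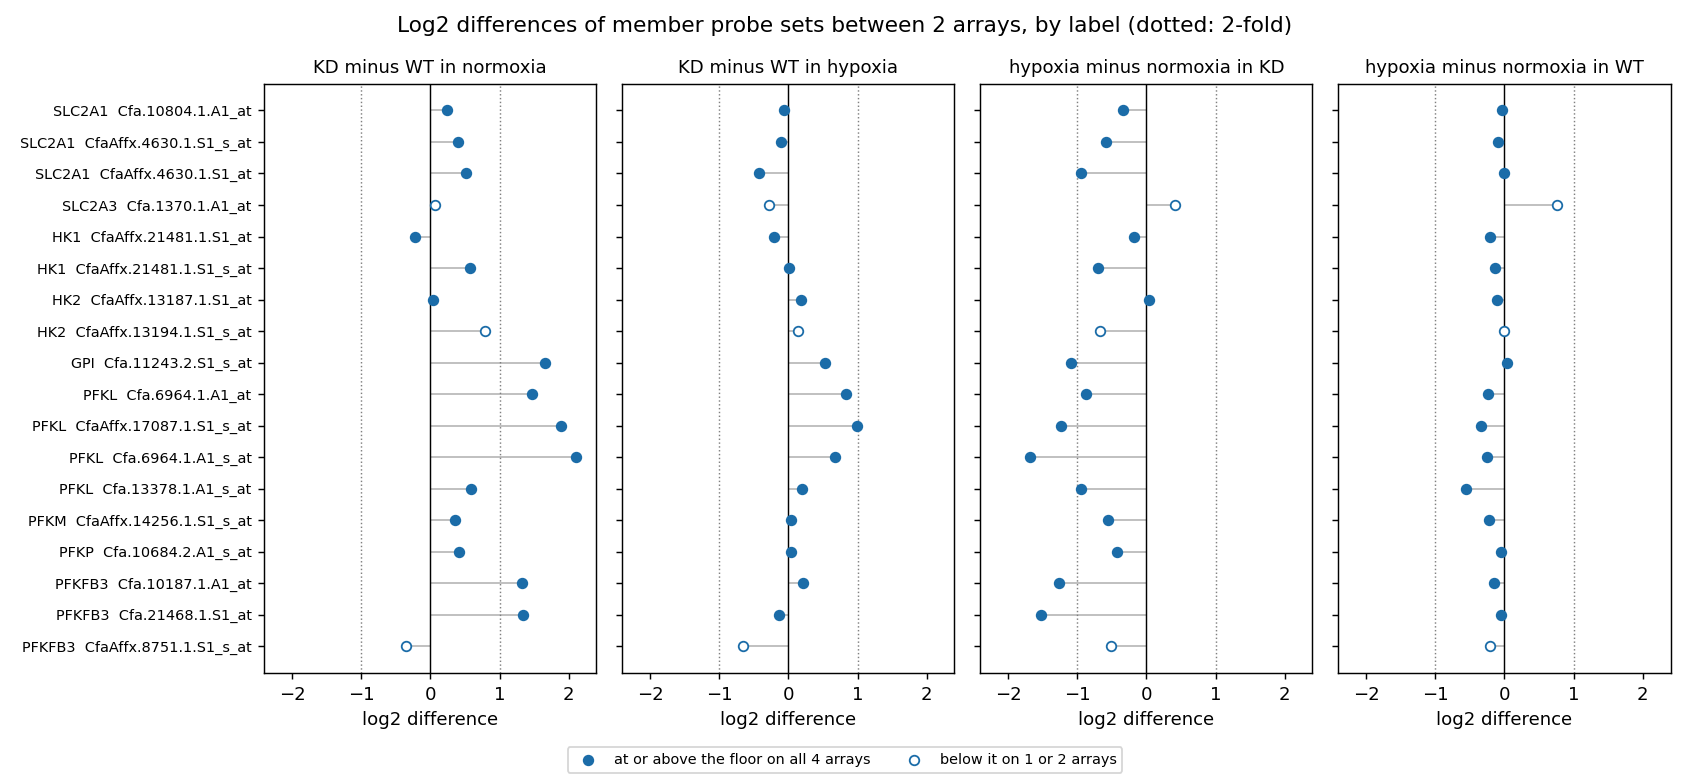
Log2 differences between 2 arrays for the 18 probe sets that reached the floor, 1 row a probe set, for labelled KD minus WT in normoxia, KD minus WT in hypoxia, hypoxia minus normoxia in KD and hypoxia minus normoxia in WT. Filled points were at or above the floor on all 4 arrays, open points were below it on 1 or 2, and dotted lines mark 2-fold. GPI, 3 PFKL and 2 PFKFB3 probe sets pass 2-fold in the first panel, 5 pass it downward in the third, and 0 pass it in the other panels.

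Between the arrays labelled KD normoxia and WT normoxia, 6 of the 18 probe sets passed 2-fold upward and 0 downward. They were the GPI probe set, 3 of PFKL and 2 of PFKFB3. Of all tested probe sets, 0.926% passed 2-fold upward and 0.516% downward. The median difference of the 18 was 0.54, against -0.02 over all tested probe sets, and 16 of them lay above 0, against 47.3% of all. The dimmest of the 6 was a PFKFB3 probe set at 253 and 90.5. Just inside the 2-fold mark was the brightest PFKFB3 probe set at 1.33, and just outside it, among probe sets above the floor on all arrays, a PFKL probe set at 0.58. The second HK2 probe set was below the floor in WT normoxia, so its place against that mark is not measured.

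In the hypoxia pair, KD minus WT, 0 of the 18 probe sets passed 2-fold in either direction, against 0.579% higher and 0.406% lower of all. The nearest was a PFKL probe set at 0.99, with 409 in KD hypoxia and 197 in WT hypoxia. Quantile scaling, median centring, cyclic loess or a pseudocount of 1 each put 1 probe set past the mark. GPI stood at 0.54 and the 4 PFKL probe sets from 0.19 to 0.99, while all 3 SLC2A1 probe sets were lower. The median of the 18 was 0.04, against -0.02 over all tested probe sets. Of them 11 were above 0 and 7 below, where 46.1% of all were above 0.

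For labelled hypoxia minus normoxia in KD cells, 5 of the 18 probe sets were at least 2-fold lower and 0 at least 2-fold higher. These were GPI, 2 PFKL and 2 PFKFB3 probe sets. Of all tested probe sets, 0.977% were at least 2-fold lower and 0.74% higher in that pair. The median of the 18 was -0.68, against 0.01 over all. Of them 16 lay below 0 and 2 above, where 51.9% of all tested probe sets lay above 0. The pair shares the array labelled KD normoxia with the pair KD minus WT in normoxia.

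For the same difference in WT cells, 0 of the 18 probe sets were 2-fold apart, against 0.757% higher and 0.592% lower of all tested probe sets. A count of 0 is near those shares. The median of the 18 was -0.12, against 0.02 over all. Of them 16 lay below 0 and 2 above, where 52.9% of all tested probe sets lay above 0. The largest negative value was -0.55, in the dimmest PFKL probe set, and SLC2A3, below the floor in normoxia, was higher by an amount that is not measured. GPI at 0.04 and the 3 SLC2A1 probe sets from -0.09 to -0.01 barely differed between the 2 arrays, which share no array with the KD pair.

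**Figure D3:**
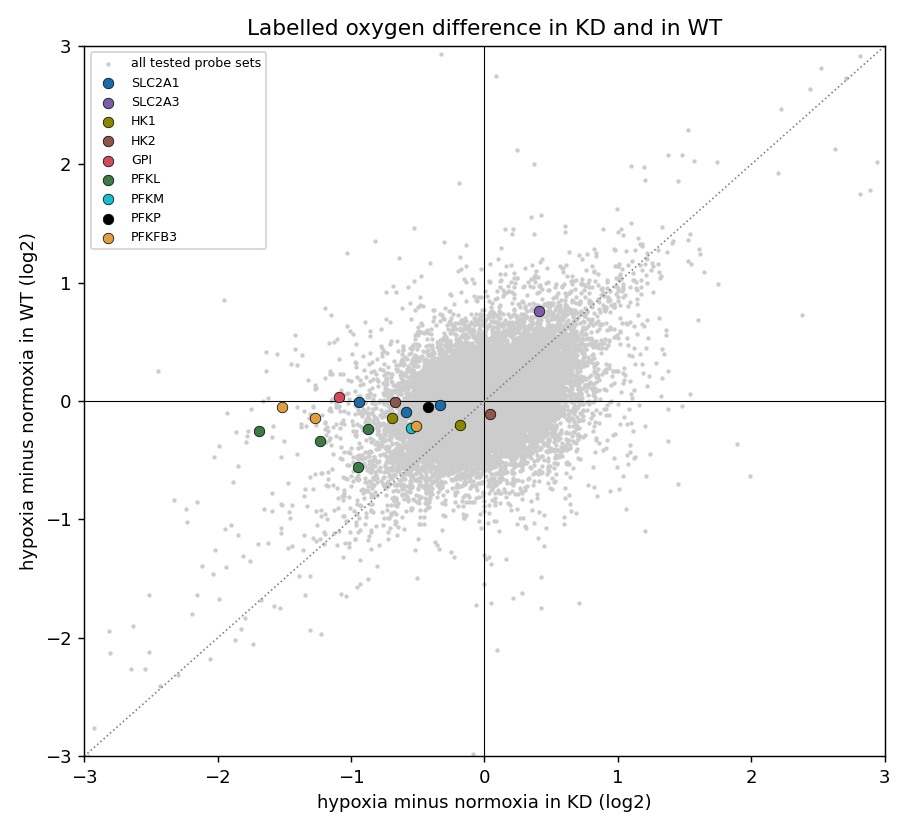
Labelled hypoxia minus normoxia in KD cells (horizontal, log2) against that in WT cells (vertical, log2), with grey points for all 23652 tested probe sets and coloured points for the 18 probe sets of the 9 genes that reached the floor; 19 tested probe sets lie beyond the axes. The dotted line marks equal differences. PFKL, PFKFB3, GPI and SLC2A1 lie left of it, between -1.69 and -0.33 across and between -0.55 and 0.04 upward.

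The difference of the responses, which takes the labelled oxygen difference of KD cells off that of WT cells, was at least 2-fold positive for 4 of the 18 probe sets and at least 2-fold negative for 0. Of all tested probe sets 0.922% were at least 2-fold positive and 0.74% negative. The 4 were 2 PFKFB3 probe sets at 1.47 and 1.12, 1 PFKL probe set at 1.43 and GPI at 1.13. The other PFKL probe sets ran from 0.39 to 0.90 and SLC2A1 from 0.30 to 0.94. With 1 array a group this difference could not be tested.

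The array labelled KD hypoxia was also set against the array labelled WT normoxia, a comparison added after the data were seen, in which HIF1A was low in KD hypoxia and high in WT normoxia. There 0 of the 18 probe sets were 2-fold apart, against 1.05% higher and 0.74% lower of all tested probe sets. GPI was higher by 0.57, with 2810 in KD hypoxia and 1885 in WT normoxia. The 4 PFKL probe sets ran from -0.36 to 0.66 and the 3 SLC2A1 probe sets from -0.43 to -0.09. The other such pair, KD normoxia minus WT hypoxia, also added after the data were seen, had HIF1A high in KD normoxia and low in WT hypoxia, apart by 2.32. In it 7 of the 18 probe sets were at least 2-fold higher and 0 lower, against 1.77% and 1.51% of all. GPI was higher by 1.63, with 6003 in KD normoxia and 1932 in WT hypoxia, the 4 PFKL probe sets by 1.14 to 2.36 and 2 PFKFB3 probe sets by 1.47 and 1.39. The median of the 18 was 0.65, against -0.04 over all.

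The test that 4 arrays allow is an additive limma model of genotype and oxygen, fitted over all 23652 tested probe sets, two-sided with Benjamini-Hochberg adjustment. Its residual has 1 degree of freedom, and the variance prior learned from the whole table adds 13.8. The model takes the genotype difference as equal in both oxygen conditions, so a genotype value is the mean of both KD minus WT differences. Its residual is the difference of the responses, in which array error and a true difference of the responses cannot be told apart. The SE and adjusted p below are thus not measured against replicate arrays. In the genotype term 5 of the 18 probe sets rose and 0 fell, against 4.38% and 4.72% of all. GPI rose by 1.10 (SE 0.16, adjusted p = 0.000803), the brightest PFKL probe set by 1.15 (SE 0.12, adjusted p = 6.4e-05) and the brightest PFKFB3 probe set by 0.77 (SE 0.16, adjusted p = 0.00883). The other 2 calls were PFKL probe sets at 1.44 and 1.39.

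In the hypoxia term 7 of the 18 probe sets fell and 0 rose, against 4.92% and 5.34% of all. They were all 4 PFKL probe sets, from -0.97 to -0.56, 2 PFKFB3 probe sets at -0.78 and -0.70, and the second SLC2A1 probe set at -0.34 (SE 0.09, adjusted p = 0.0249). GPI stood at -0.53 (adjusted p = 0.0529) and passed no threshold there. Without the intensity trend of the prior, limma called 0 of these probe sets in either term, with a smallest adjusted p of 0.176 for genotype and 0.142 for hypoxia. In the limma fit of all tested probe sets, the brightest and the dimmest SLC2A1 probe sets were not called for hypoxia (adjusted p = 0.0896 and 0.0561). With 1 probe set a gene, PFKFB3 was no longer called by limma in either term (adjusted p = 0.0579 and 0.0595). SLC2A1, there by its brightest probe set, was not called for hypoxia (adjusted p = 0.146). PFKL was then the only gene of the 9 tested called for hypoxia (adjusted p = 0.0359). The model's own residual spread for GPI was 0.56, against 0.16 after moderation by the prior, and leaving out any array leaves no residual degree of freedom. Under the exchange of labels described above the terms would swap, so that the genotype values would be those of hypoxia, GPI at 1.10, and the hypoxia values those of genotype, GPI at -0.53.

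**Figure D4:**
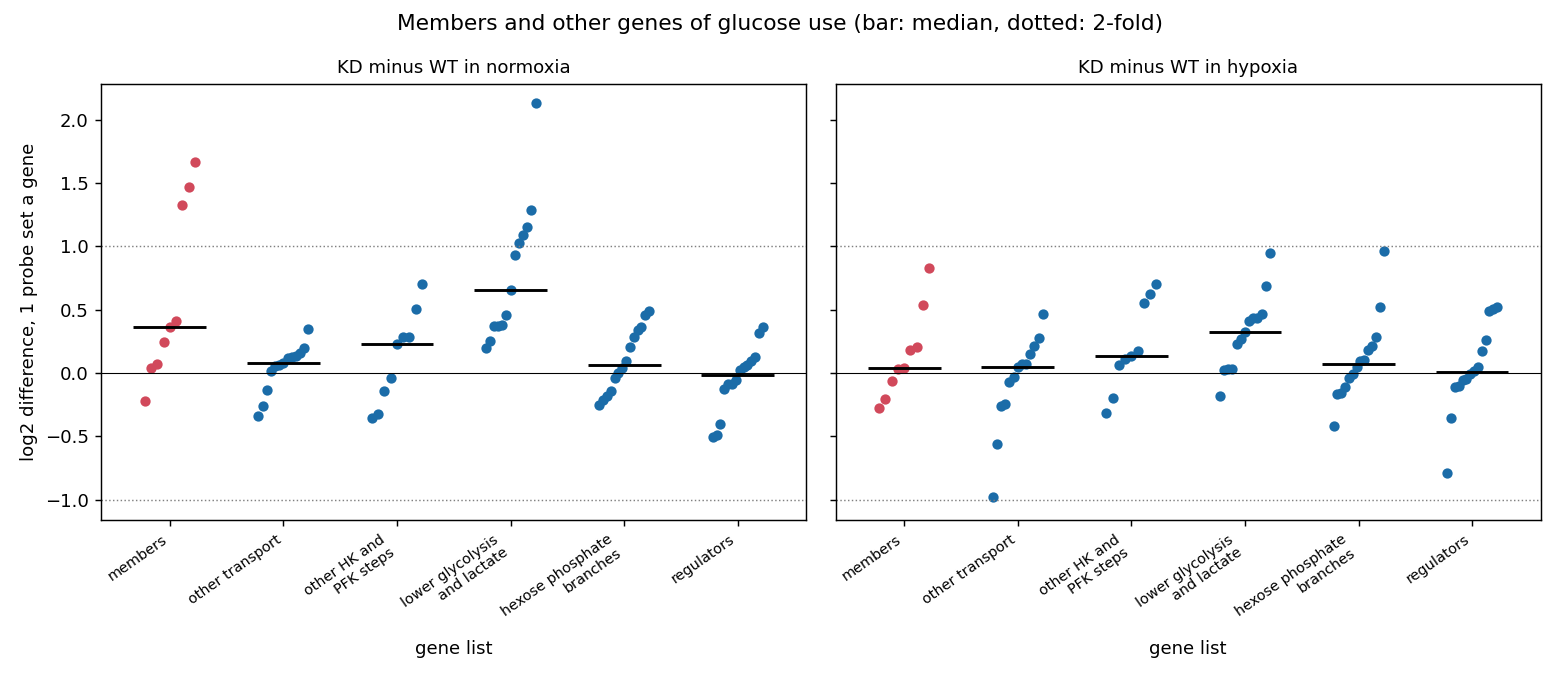
Log2 difference of every tested gene, by 1 probe set a gene, in the 10-gene group (9 tested) and 5 lists of other genes, for labelled KD minus WT in normoxia and in hypoxia. Points are genes sorted within a list, the bar is the list median, and dotted lines mark 2-fold. In normoxia 3 of the 10 genes and 5 lower glycolysis genes pass 2-fold, and in hypoxia 0 genes of any list do.

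Other genes of glucose handling were set beside these by 1 probe set a gene, over 9834 tested genes. In KD minus WT in normoxia 0.854% of them passed 2-fold upward and 0.325% downward, and in hypoxia 0.519% and 0.356%. The 10 genes had 3 at least 2-fold higher (GPI, PFKL and PFKFB3) and a median of 0.36 over the 9 tested, against -0.01 over all genes. Of 13 tested genes of lower glycolysis and lactate, 5 passed 2-fold upward and 0 downward, with a median of 0.65. ALDOC, an aldolase isoform, stood at 2.13, ENO3, an enolase isoform, at 1.29 and GAPDH at 1.16. In the limma genotype term 7 of the 13 rose and 0 fell, against 2.94% and 2.43% of all genes, with ALDOC, ENO1 and LDHA among them. The call rests on the same prior.

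Other glucose transporters and proteins that control transport were set beside these in KD minus WT in normoxia. Of 13 tested, 0 were 2-fold apart, against 0.854% higher and 0.325% lower of all tested genes, so the count is near that share. Their median was 0.08, against -0.01 over all tested genes. SLC2A6 stood at 0.35, SLC5A9, a sodium-coupled sugar transporter, at -0.26 and SLC2A9, a urate transporter, at 0.20. TXNIP, an arrestin-like protein known to drive GLUT1 off the cell surface, read 1163 in the array labelled KD hypoxia, 2302 in WT hypoxia, 2728 in KD normoxia and 2497 in WT normoxia. It was low in the array labelled KD hypoxia alone, with hypoxia minus normoxia at -1.22 in KD cells. In the limma hypoxia term 2 of the 13 fell and 0 rose, against 4.17% and 4.72% of all genes: SLC2A9 by 0.57 (SE 0.13, adjusted p = 0.0265) and STX4, a syntaxin of vesicle fusion at the cell surface, by 0.30 (SE 0.08, adjusted p = 0.0458).

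The other enzymes of the hexokinase and phosphofructokinase steps include those that run the reactions backwards. FBP1, which removes the phosphate that phosphofructokinase adds, read 692 in the array labelled KD hypoxia, 862 in WT hypoxia, 338 in KD normoxia and 437 in WT normoxia. Both arrays labelled hypoxia were above both labelled normoxia, which held for no tested probe set of GPI, PFKL or PFKFB3. In the hypoxia term FBP1 rose by 0.98 (limma, SE 0.09, adjusted p = 0.000433). SLC37A4, the carrier of glucose 6-phosphate into the endoplasmic reticulum, read 289, 192, 209 and 123 in the same order of labels. It rose in both terms, by 0.51 for hypoxia (adjusted p = 0.0289) and 0.62 for genotype (adjusted p = 0.0204). The other 7 of 9 tested genes of that list passed the test in neither term, TIGAR among them, with KD minus WT in normoxia at -0.32. Of the 9, 2 rose and 0 fell for hypoxia, against 4.72% and 4.17% of all tested genes. For genotype 1 rose and 0 fell, against 2.94% and 2.43%.

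The 2 genes of the widest range, PFKL (1.70) and GPI (1.66), were compared with 9438 other named genes by the root-mean-square distance of centred log2 profiles over the 4 arrays. Closest to GPI was ZNF395 at a distance of 0.07, followed by CLCN4 at 0.08, FGF1 at 0.11, PFKL at 0.12 and P4HA1, a collagen prolyl hydroxylase, at 0.14. FGF1 reached the floor on 1 array alone. Closest to PFKL were ZNF395 and GPI, both at 0.12, then P4HA1 at 0.13, ATP2B4, a calcium pump, at 0.14 and SLC5A3, a myo-inositol transporter, at 0.14. PFKFB3 ranked 9th to GPI and 22nd to PFKL, with distances of 0.19 and 0.24. PFKM ranked 493rd to GPI, PFKP 507th, SLC2A1 1310th, HK2 2923rd, HK1 6158th and SLC2A3 8439th. Distances over 4 arrays describe these arrays only. The profiles were centred and not scaled to equal range, so a distance reflects the size of the differences as well as their shape. PFKM, PFKP and SLC2A1 also had their highest value in the array labelled KD normoxia, with smaller differences.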

How the data were processed

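Labelled cRNA for the arrays started from 100 ng of total RNA, per the labels' protocols. The authors deposited 1 intensity value per probe set and array, not on a log scale. How the signal was summarised and scaled is not given in the labels or headers. The deposited values had nearly equal trimmed means over the arrays, from 310 to 315, and between 1065 and 1129 values per array were exactly 1.

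Analyses used log2(intensity + 16) with no further scaling. Of 42924 probe sets, 29254 had 1 gene symbol, 439 several and 13231 none in the platform annotation used; those with several were assigned to no gene. The platform's gene ID matched a RefSeq gene table, which served for names, for 9 of the 10 genes; for HK2 the symbol alone was found. No coordinates or sequences are given, since no genome of a known build was used.

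Tests ran over all probe sets that reached the floor with limma 3.58.1 (lmFit, then eBayes with its variance trend on intensity) under R 4.3.3. Gene lists used the probe set with the highest mean. Summaries were made in Python 3.11.15, and the steps were tested on simulated data. The 10 genes, the lists and the tests were chosen with earlier results of these data known. Named were all 10 genes, HIF1A, the 3 genes per list with the largest differences above the floor in the pair described, and the 5 genes nearest in profile to the 2 genes of the widest range. TXNIP, EPAS1, the list genes named for passing a limma test, and the cell type markers fall outside that rule and were chosen after their values were seen. Alternatives were 3 scalings, pseudocounts of 1 and 64, 3 floors, 2 ways to take 1 value a gene, a 3-fold mark, a prior without the trend and an adjusted p of 0.01. Added after the data were seen were the comparisons of KD hypoxia with WT normoxia and of KD normoxia with WT hypoxia, and a fit of probe sets above the floor on all 4 arrays.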

Additional observations from a re-analysis of the deposited data

Results flagged for a closer look

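For 7 of the 18 probe sets the labelled difference had opposite signs in 2 groups, which is common on these arrays. The differences of the responses were not tested, as no group holds a second array. In 2 of them hypoxia minus normoxia had opposite signs in KD and WT cells, against 34.2% of all tested probe sets. GPI was at -1.09 in KD cells and 0.04 in WT cells, a difference of the responses of 1.13. The brightest HK2 probe set was at 0.04 in KD cells and -0.11 in WT cells, a difference of -0.15.

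In the other 5 it was KD minus WT that had opposite signs in hypoxia and normoxia, against 33.4% of all tested probe sets. The 3 SLC2A1 probe sets, from brightest to dimmest, were at -0.06, -0.10 and -0.42 in hypoxia and at 0.24, 0.39 and 0.52 in normoxia, with differences of the responses of 0.30, 0.50 and 0.94. The second PFKFB3 probe set was at -0.13 in hypoxia and 1.34 in normoxia, a difference of 1.47. The brightest SLC2A3 probe set was at -0.28 and 0.07, a difference of 0.35, but it lay below the floor in both arrays labelled normoxia, so its size is not measured.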

How the results depend on the processing

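The 4 groups have 1 array each. No paired analysis was possible because no group has a second replicate, and no array could be left out with a degree of freedom remaining. Of 450 differences of single probe sets under 3 scalings and 2 pseudocounts, 435 moved by less than the model's spread, 15 moved further (14 of them with a pseudocount of 64) and 0 that had passed 2-fold changed sign. For KD minus WT in normoxia 6 probe sets passed 2-fold under the 3 scalings, 2 pseudocounts and 3 floors. With 1 probe set a gene 3 genes did, with the median over probe sets 2, at 3-fold 3 probe sets, in KD hypoxia minus WT normoxia 0, and in KD normoxia minus WT hypoxia 7. For KD minus WT in hypoxia the count was 0, and 1 under quantile scaling, median centring, cyclic loess or a pseudocount of 1. For hypoxia minus normoxia in KD it was 5, and 6 with a pseudocount of 1. The count there was 2 genes by 1 probe set a gene, 3 by the median, and 1 probe set at 3-fold. For the difference of the responses it was 4, with 2 genes either way and 0 probe sets at 3-fold. In WT cells the oxygen count was 0 under every alternative run. The genotype term called 5, against 6 under quantile scaling or cyclic loess, 0 without a floor and 0 without the trend. It called 2 genes by 1 probe set or by the median. The hypoxia term called 7, against 11 under quantile scaling or cyclic loess, 0 without a floor and 0 without the trend. It called 9 under median centring, a pseudocount of 1 or 64, or a floor at the 25th percentile. With a floor at the 75th percentile it called 5, and among probe sets above the floor on all 4 arrays 6. By gene it called 1 of 9 by 1 probe set a gene, against 4.17% falling of all tested genes, and 5 of 8 by the median. At an adjusted p of 0.01 it called 3. The causes were not tested, apart from there being fewer values where a gene counts once. For the other scalings, pseudocounts, floors and thresholds and the median over probe sets, the share over all is not given here. Those counts of members thus have no background beside them. Over all tested probe sets, limma called 2153 for genotype and 2427 for hypoxia, against 0 and 25 without the trend (4435 and 4248 at an unadjusted p under 0.05). The median shift under another scaling was at most 0.03.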

Other observations

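Genes of other routes of hexose use had a median KD minus WT difference in normoxia near that of all tested genes. They were 14 tested genes of the pentose phosphate, hexosamine and mannose branches and of the polyol pathway (AKR1B1). Of these, 0 were 2-fold apart in KD minus WT in normoxia, near the share of all tested genes, 0.854% higher and 0.325% lower. The median was 0.07, against -0.01 over all tested genes. In the limma genotype term 2 rose and 0 fell, against 2.94% and 2.43% of all tested genes. PMM2, a phosphomannomutase of protein glycosylation, read 310 in the array labelled KD hypoxia, 152 in WT hypoxia, 241 in KD normoxia and 167 in WT normoxia, and rose by 0.73 (SE 0.14, adjusted p = 0.0205). GNPDA1, a glucosamine 6-phosphate deaminase, rose by 0.49 (SE 0.11, adjusted p = 0.0364). In the hypoxia term PGD, of the oxidative pentose phosphate pathway, rose by 0.20 (adjusted p = 0.0457), and 2 hexosamine enzymes fell, PGM3 by 0.36 (adjusted p = 0.0239) and GNPNAT1 by 0.25 (adjusted p = 0.0284), against 4.72% rising and 4.17% falling of all tested genes.

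Among 14 tested regulators, MYC, a transcription factor known to raise glycolytic genes, read 793 in the array labelled KD hypoxia, 1018 in WT hypoxia, 747 in KD normoxia and 994 in WT normoxia. It was lower in both arrays labelled KD and fell by 0.38 in the genotype term (SE 0.09, adjusted p = 0.0418). In the hypoxia term VDAC1, a channel of the outer mitochondrial membrane, rose by 0.26 and HIF1A fell by 2.42, and no other regulator passed the test in either term. Of the 14, 1 thus rose and 1 fell for hypoxia, against 4.72% and 4.17% of all tested genes. For genotype 0 rose and 1 fell, against 2.94% and 2.43%. KD minus WT in normoxia was -0.49 for MLXIPL and 0.31 for ARNT, the partner subunit of HIF1A. The difference of the responses was -1.01 for both MLXIPL, a glucose-responsive transcription factor, and EPAS1, which encodes HIF-2 alpha and was below the floor on 2 of the 4 arrays. The genotype calls rest on the prior described above, since limma without the intensity trend called 0 probe sets for genotype. The hypoxia calls use the same prior, but without the trend limma still called 25 probe sets for hypoxia. Which of these genes were among them is not given here.

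Besides the probe set used for GPI, 2 others carry its symbol together with a placeholder symbol and were assigned to no gene. They read 6085 and 2252 in the array labelled KD hypoxia, 4366 and 1459 in WT hypoxia, 11048 and 5026 in KD normoxia, and 4170 and 1459 in WT normoxia. Both had their highest value in the array labelled KD normoxia, with KD minus WT in normoxia of 1.40 and 1.77, and their hypoxia minus normoxia difference in WT cells was 0.07 and 0.00.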
